A study of Homo sapiens with 6 samples.

Results

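Respiratory complex I was represented by 44 genes of the 18132 measured, namely 36 nuclear-encoded subunits and 8 assembly factors of the NDUFAF series. They were chosen by gene symbol alone (NDUFA, NDUFB, NDUFC, NDUFS, NDUFV or NDUFAF followed by a number, and NDUFAB1), from probe sets that carry 1 symbol, and the brightest probe set stands for each gene. The samples were TE-1 cells, a human line from an oesophageal squamous cell carcinoma, grown in RPMI-1640 medium and hybridised to Affymetrix arrays. One group of 3 arrays held parental cells, called control, and the other 3 held a clone with a stable knockdown of EIF3C, a subunit of the translation initiation factor eIF3. All knockdown arrays share 1 clone, and the labels describe no second clone and no control construct. The replicates are labelled biological, without saying whether they were separate cultures, so the spread behind each p-value is that of these arrays alone and may be technical in part or whole. Differences between a clone and its parental line that have another origin than EIF3C cannot be told apart from the knockdown.

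Complex I is the entry point of electrons into the mitochondrial respiratory chain. Its matrix arm oxidises NADH and passes electrons through a flavin and a row of iron-sulfur clusters to ubiquinone, and its membrane arm pumps protons. Core subunits carry out these reactions, accessory subunits surround and stabilise them, and assembly factors help to build the complex and are not part of the finished enzyme. The remaining core subunits, those of the ND series, are encoded by mitochondrial DNA.

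Some complex I genes lie head to head with another gene, so that a single short stretch of DNA lies between both starts. Such a neighbour was found within 1000 bases on the opposite strand for 20 of the 39 members with an entry in the RefSeq promoter table (GRCh38.p14). How many other genes have such a neighbour was not measured. The stretches of 4 members with some of the largest changes are shown because their neighbours were also measured. Each is given 5′ to 3′ on the member's strand and ends at the base before the member's start. Capitals mark 5 short motifs searched on both strands, namely CCGGAA (the core bound by ETS factors), GGGCGG (SP1), CCAAT (the CCAAT box), GCATGCGC (NRF1) and AAGATGG (YY1), where adjoining capitals can hold more than 1 motif.
NDUFAF3: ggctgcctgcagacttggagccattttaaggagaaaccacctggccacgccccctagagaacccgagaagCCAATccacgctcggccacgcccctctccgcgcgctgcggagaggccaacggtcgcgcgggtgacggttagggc
NDUFAF2: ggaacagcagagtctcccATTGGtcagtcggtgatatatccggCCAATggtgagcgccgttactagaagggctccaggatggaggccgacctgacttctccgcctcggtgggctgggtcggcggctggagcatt
NDUFS3: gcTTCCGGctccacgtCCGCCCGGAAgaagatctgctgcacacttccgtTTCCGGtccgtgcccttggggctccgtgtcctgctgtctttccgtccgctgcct
NDUFB1: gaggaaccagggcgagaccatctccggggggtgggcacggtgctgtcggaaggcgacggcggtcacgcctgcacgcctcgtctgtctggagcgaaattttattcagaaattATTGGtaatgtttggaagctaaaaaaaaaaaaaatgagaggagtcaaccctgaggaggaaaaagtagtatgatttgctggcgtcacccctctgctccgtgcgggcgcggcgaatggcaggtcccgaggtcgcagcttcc
The first, chr3:49021506-49021649 on the plus strand, is the whole stretch between the starts of NDUFAF3 and DALRD3, which are 145 bases apart, and it holds 1 CCAAT box. The second, chr5:60945071-60945204 on the plus strand, separates NDUFAF2 from ERCC8 (135 bases between starts) and holds 2. The third, chr11:47578971-47579073 on the plus strand, separates NDUFS3 from KBTBD4 (104 bases) and holds 3 ETS cores and 1 SP1 motif. The last, chr14:92121707-92121956 on the minus strand, is the 250 bases before NDUFB1, whose neighbour CPSF2 starts 263 bases away, and it holds 1 CCAAT box. In 300-base windows around each start, 51 for the members, YY1 motifs stood in 21.6% and NRF1 motifs in 15.7%, against 5.84% and 3.05% of all 35116 windows and 6.62% and 4.17% of those of genes tested. ETS cores stood in 25.5% of the members' windows, SP1 motifs in 64.7% and CCAAT boxes in 31.4%, against 24.5%, 63.7% and 34.3% for genes tested (17.2%, 45.0% and 34.6% of all windows). A match is a description of the letters and not a bound site.

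The arrays were alike in overall signal, with medians of 6.09 to 6.11. On the 3 bright probe sets shared by EIF3C and its near-identical copy EIF3CL, knockdown cells kept 21.5% to 22.6% of the control level. Non-human control probe sets, 85 in number, differed between the groups by -0.22 to 0.20 on the log2 scale. Among squamous epithelial markers with a probe set of 1 symbol, EPCAM, CDH1 and SFN had control means of 11.89, 11.21 and 10.96. KRT5, KRT14 and PKP1 were dim at 5.91, 5.85 and 5.19, not far above the lowest mean kept for testing, 4.63, so the basal keratins were not clearly detected. The summed linear signal of the 8 squamous markers was 8967 to 9199 in control and 9742 to 9853 in knockdown, and most of it came from EPCAM, CDH1 and SFN, which are general epithelial genes. EPCAM and CDH1 rose by 0.21 and 0.23, while the squamous genes TRIM29 and DSG3 fell by 0.99 and 0.70. Of 4 leukocyte markers, PTPRC stood at 2.87, below that limit, and CD3E, LST1 and TYROBP above it at 5.08, 5.83 and 6.59. Of 5 fibroblast markers only PDGFRB was above it, at 6.21, with LUM, COL3A1, DCN and THY1 at 2.60, 3.39, 3.60 and 4.06. TYROBP and PDGFRB were thus brighter than KRT5, and none of the leukocyte or fibroblast markers tested passed the threshold. Of 5 endothelial markers 4 passed the limit, with a summed linear signal of 211 to 227 in control and 228 to 232 in knockdown. CDH5 was called higher at 0.46 and KDR lower at -0.26. The part of these markers in the complex I results was not tested. Less RNA per cell and fewer cells of a kind cannot be told apart in such bulk samples.

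Subunit transcripts went both ways in knockdown cells. Of 36 subunits, 14 rose, 16 fell and 6 did not pass the threshold (limma, adjusted p under 0.05). The share called was 83.3%, beside 66.5% of all 13599 genes tested. All 36 were among the 9066 brightest genes, and when only those 9066 were tested 80.3% of them were called. The median log2 fold change of the subunits was -0.01, beside -0.03 over all genes tested, and the range ran from -0.63 to 0.63. The groups did not overlap for 31 subunits (70.3% of all genes tested). Changes of at least 1.25-fold were found for 4 rising and 7 falling subunits (37.5% of all genes tested, either direction), and changes of at least 1.5-fold for 4 (16.5%). No subunit changed 2-fold. Of the 30 called subunits, 10 changed by no more than the largest difference of a control probe set. Beyond it, 10 rose and 10 fell.

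**Figure D1:**
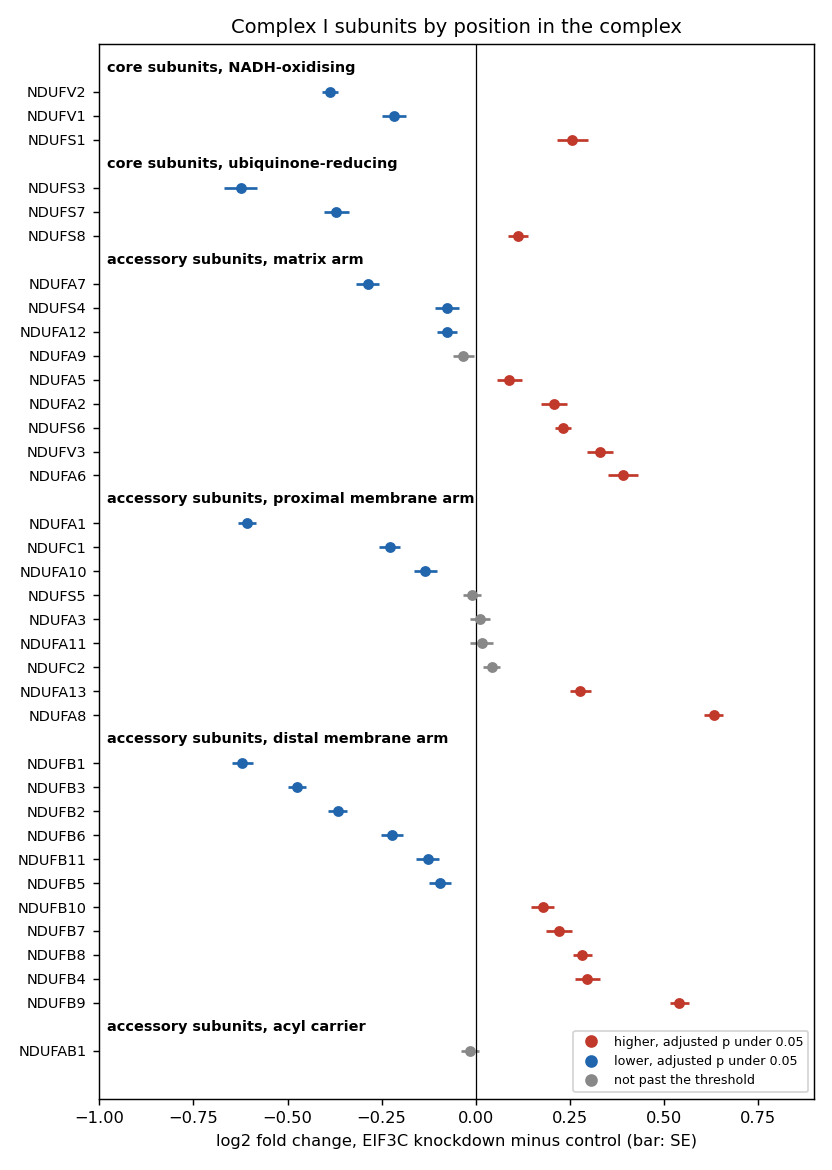
Log2 fold change (knockdown minus control) of each of 36 complex I subunits with its standard error, 3 arrays per group, ordered by position in the complex. Points to the right of the line at 0 are higher in knockdown. Every position with more than 1 subunit holds members on both sides, with NDUFA8 at 0.63 and NDUFS3 at -0.63 at the ends.

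Among core subunits of the NADH-oxidising end, NDUFV1 and NDUFV2 fell and NDUFS1 rose. NDUFV2, which carries an iron-sulfur cluster, read 11.69, 11.67 and 11.69 in control and 11.29, 11.32 and 11.28 in knockdown (log2 signal, 1 value per array). It fell by 0.39 (SE 0.02, adjusted p = 5.28e-11) with tight groups that were well apart. NDUFV1, which binds NADH and the flavin, read 9.85, 9.77 and 9.77 in control and 9.58, 9.59 and 9.56 in knockdown and fell by 0.22 (SE 0.03, adjusted p = 1.06e-05). NDUFS1, the largest subunit of the matrix arm and a carrier of several clusters, read 8.89, 8.88 and 8.75 in control and 9.09, 9.14 and 9.07 in knockdown. It was higher by 0.26 (SE 0.04, adjusted p = 3.29e-05), and all knockdown arrays lay above all controls. In the fit over every probe set, 3 further probe sets of NDUFS1 were called higher, at 0.27 to 0.30, and a dim one stood at 0.02.

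Of the ubiquinone-reducing core, NDUFS3 and NDUFS7 fell and NDUFS8 rose slightly. NDUFS3, an early-assembled subunit of the ubiquinone module, read 9.36, 9.39 and 9.30 in control and 8.74, 8.80 and 8.63 in knockdown. Its level in knockdown was 64.8% of control (log2 fold change -0.63, SE 0.04, adjusted p = 1.03e-09), the largest fall among the subunits on the brightest probe sets, by a narrow margin over NDUFB1. With the mean of its probe sets NDUFS3 fell by 0.23 and NDUFA1 by 0.64. The other probe set of NDUFS3 was dim, at 4.66 in control, and did not pass (0.17). A probe set that the annotation assigns to both NDUFS3 and PTPMT1 was higher in knockdown by 0.54, and the share of each gene in it is unknown. NDUFS7, which holds the last cluster before ubiquinone, read 9.28, 9.27 and 9.22 in control and 8.88, 8.87 and 8.90 in knockdown. It fell by 0.37 (SE 0.03, adjusted p = 4.5e-08), as did 2 further bright probe sets, at -0.28 and -0.34, while a dim one was called the opposite way at 0.29. NDUFS8, another cluster carrier, read 10.36, 10.33 and 10.36 in control and 10.48, 10.47 and 10.43 in knockdown, a rise of 0.11 (SE 0.03, adjusted p = 0.00108). This was smaller than the largest control probe set difference, and the second probe set of NDUFS8, dimmer, was called lower at -0.20. With the mean of its probe sets NDUFS8 stood at -0.04 and did not pass (adjusted p = 0.323).

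Accessory subunits of the matrix arm rose in 5 cases of 9 and fell in 3. The largest rise was that of NDUFA6, a member of the LYR family that anchors an acyl carrier protein. It read 10.03, 10.11 and 9.91 in control and 10.45, 10.39 and 10.39 in knockdown (log2 fold change 0.39, SE 0.04, adjusted p = 1.55e-07). NDUFV3 read 9.80, 9.84 and 9.85 in control and 10.08, 10.22 and 10.17 in knockdown, a rise of 0.33 (SE 0.03, adjusted p = 2.08e-07). Its probe sets disagreed: both dimmer ones were called lower, at -0.25 and -0.24, and with the mean of the probe sets NDUFV3 stood at -0.05 (adjusted p = 0.185). NDUFS6, a zinc-binding subunit, had tight groups of 11.53, 11.56 and 11.54 in control against 11.79, 11.77 and 11.76, a rise of 0.23 (SE 0.02, adjusted p = 2.18e-08). NDUFA2, which has a thioredoxin fold, rose by 0.21 (adjusted p = 3.66e-05) and NDUFA5 by 0.09 (adjusted p = 0.0238).

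NDUFA7 was the largest fall of the matrix arm accessory subunits. It read 9.66, 9.68 and 9.64 in control and 9.36, 9.38 and 9.38 in knockdown (log2 fold change -0.29, SE 0.03, adjusted p = 2.51e-07). NDUFA12 fell by 0.08, from 10.50, 10.52 and 10.52 to 10.44, 10.46 and 10.41 (SE 0.03, adjusted p = 0.0151). NDUFS4, whose loss is a known cause of Leigh syndrome, read 9.97, 10.08 and 10.01 in control and 9.95, 9.97 and 9.91 in knockdown, a fall of 0.08 at the edge of the threshold (SE 0.03, adjusted p = 0.049). NDUFA9, a NADPH-binding subunit at the foot of the matrix arm, did not pass (log2 fold change -0.03, SE 0.03, adjusted p = 0.331). The small changes of NDUFS4, NDUFA12 and NDUFA5 kept their direction when single arrays were left out, at -0.10 to -0.05, -0.09 to -0.06 and 0.06 to 0.11, but not always their call. For NDUFS4 the adjusted p was 0.263 with control replicate 2 left out, 0.079 with knockdown replicate 1 left out, 0.0507 with knockdown replicate 2 and 0.189 with knockdown replicate 3. NDUFA12 did not pass without control replicate 2 (0.0518) or knockdown replicate 3 (0.0803), and for NDUFA5 the adjusted p was 0.114 with control replicate 1 left out, 0.0571 with knockdown replicate 1 and 0.0889 with knockdown replicate 2.

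In the proximal membrane arm, 2 of 9 accessory subunits rose, 3 fell and 4 did not pass. NDUFA8, a cysteine-rich subunit on the intermembrane space side, read 10.24, 10.29 and 10.24 in control and 10.91, 10.87 and 10.88 in knockdown. This was the largest rise of any subunit on the brightest probe sets, 1.55-fold (log2 fold change 0.63, SE 0.03, adjusted p = 1.26e-12). Its other probe set was near the floor, at 3.94 in control, and was called lower at -0.32. With the mean of both probe sets NDUFA8 rose by only 0.16 (limma, adjusted p = 0.0115). NDUFA13, also known as GRIM-19, rose from 10.82, 10.83 and 10.74 to 11.10, 11.06 and 11.06 (0.28, SE 0.03, adjusted p = 1.12e-07). Of its 4 other probe sets, 2 were called higher and 2 near the floor did not pass.

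NDUFA1, a small membrane-spanning subunit encoded on the X chromosome, was among the steepest and most even falls. It read 11.50, 11.54 and 11.49 in control and 10.91, 10.88 and 10.91 in knockdown, or 65.6% of control (log2 fold change -0.61, SE 0.02, adjusted p = 5.53e-13). Its other probe sets, equally bright, fell by 0.62 and 0.69. NDUFC1 fell from 10.51, 10.59 and 10.53 to 10.29, 10.30 and 10.35 (-0.23, SE 0.03, adjusted p = 2e-06). NDUFA10, which resembles a nucleoside kinase, fell from 9.93, 9.99 and 9.90 to 9.83, 9.77 and 9.81 (-0.13, SE 0.03, adjusted p = 0.00135). NDUFA3, NDUFA11, NDUFC2 and NDUFS5 did not pass, with log2 fold changes of 0.01, 0.02, 0.04 and -0.01. For NDUFC2 this rested on a probe set at 11.42 in control. Its other probe sets, at 7.21 and 5.88 in control, were both called lower at -0.76 and -0.63, and with the mean of the probe sets NDUFC2 was called lower (-0.45, adjusted p = 1.34e-07). Without control replicate 2 the bright probe set was called higher (0.06, adjusted p = 0.047). A probe set assigned to KCTD14 and the read-through transcript NDUFC2-KCTD14, at 7.78 in control, was called lower at -0.61. Which transcripts the dimmer NDUFC2 probe sets read was not tested.

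All 11 accessory subunits of the distal membrane arm, the NDUFB series, were called, 5 higher and 6 lower. Of all genes tested 66.5% were called, and 80.3% when only the 9066 brightest were tested. NDUFB9, a LYR protein like NDUFA6, read 11.13, 11.14 and 11.08 in control and 11.69, 11.63 and 11.65 in knockdown (0.54, SE 0.02, adjusted p = 5.09e-12). Its other bright probe sets rose by 0.59 and 0.63, and a dim one stood at -0.23 and did not pass. NDUFB4 read 10.34, 10.43 and 10.39 in control and 10.66, 10.75 and 10.64 in knockdown, a rise of 0.30 (SE 0.03, adjusted p = 3.98e-07). A second probe set of NDUFB4 held identical values and adds nothing to it. NDUFB8 rose from 10.56, 10.55 and 10.58 to 10.87, 10.82 and 10.86 (0.28, SE 0.03, adjusted p = 2.71e-08), and NDUFB7 and NDUFB10 rose by 0.22 and 0.18.

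The falls of the distal arm were led by NDUFB1, a small membrane subunit. It read 10.52, 10.56 and 10.51 in control and 9.94, 9.89 and 9.90 in knockdown, or 65.1% of control (log2 fold change -0.62, SE 0.03, adjusted p = 3.96e-12). NDUFB3 fell from 11.22, 11.25 and 11.19 to 10.72, 10.77 and 10.74 (-0.48, SE 0.02, adjusted p = 2.07e-11), with further probe sets at -0.22, called lower, and -0.15, not called. NDUFB2 fell from 11.19, 11.27 and 11.23 to 10.86, 10.85 and 10.88 (-0.37, SE 0.03, adjusted p = 8.75e-10). In each of these genes the knockdown arrays lay far below the controls relative to the spread within groups. NDUFB6, NDUFB11 and NDUFB5 fell by 0.22, 0.13 and 0.09. NDUFAB1, the acyl carrier protein that both LYR subunits hold, did not pass (log2 fold change -0.02, SE 0.02, adjusted p = 0.578).

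The largest changes of the whole set on the brightest probe sets were those of the assembly factors NDUFAF3 and NDUFAF2. Of 8 NDUFAF factors, 4 rose, 1 fell and 3 did not pass, or 62.5% called beside 66.5% of all genes tested. Their median log2 fold change was 0.14, beside -0.03 over all genes tested. With the mean of probe sets it was 0.03, beside -0.03 over all genes tested. NDUFAF3, which works with NDUFAF4 early in the assembly of the ubiquinone module, read 8.94, 8.88 and 9.07 in control and 7.78, 7.73 and 7.66 in knockdown. Knockdown cells held 42.3% of the control level, the only 2-fold change among the 44 members on the brightest probe sets (log2 fold change -1.24, SE 0.05, adjusted p = 1.08e-12). The second probe set of NDUFAF3, as bright, fell by 1.37.

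NDUFAF4, the partner of NDUFAF3, moved the opposite way. It read 7.63, 7.82 and 7.65 in control and 8.32, 8.38 and 8.27 in knockdown, a 1.54-fold rise (log2 fold change 0.62, SE 0.05, adjusted p = 2.24e-08). A further probe set rose by 0.69, and a dim one stood at 0.13 and did not pass. NDUFAF2, a relative of NDUFA12 that acts late in assembly, read 8.22, 8.18 and 8.10 in control and 9.02, 8.97 and 9.07 in knockdown. Its rise was 1.81-fold (log2 fold change 0.86, SE 0.04, adjusted p = 1.54e-11), with 1 probe set on the array.

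NDUFAF8, a partner of NDUFAF5, rose from 9.13, 9.10 and 9.08 to 9.42, 9.33 and 9.38 (0.27, SE 0.03, adjusted p = 2.26e-06), and its second probe set by 0.38. NDUFAF7, a protein methyltransferase, rose from 8.70, 8.80 and 8.73 to 8.94, 8.99 and 9.04 (0.25, SE 0.04, adjusted p = 3.35e-05). Of its other probe sets, 1 was called higher at 0.25 and 1 lower at -0.40, and with their mean the gene did not pass (0.03, adjusted p = 0.483). The groups of the remaining factors overlapped. NDUFAF1, which belongs to the complex that assembles the membrane arm, read 7.45, 7.59 and 7.42 in control and 7.50, 7.47 and 7.34 in knockdown (-0.05, SE 0.06, adjusted p = 0.511). NDUFAF5, a hydroxylase of NDUFS7, read 7.61, 7.59 and 7.56 against 7.62, 7.61 and 7.59 (0.02, SE 0.05, adjusted p = 0.685). NDUFAF6 read 8.43, 8.45 and 8.48 against 8.43, 8.50 and 8.37 (-0.02, SE 0.04, adjusted p = 0.718).

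**Figure D2:**
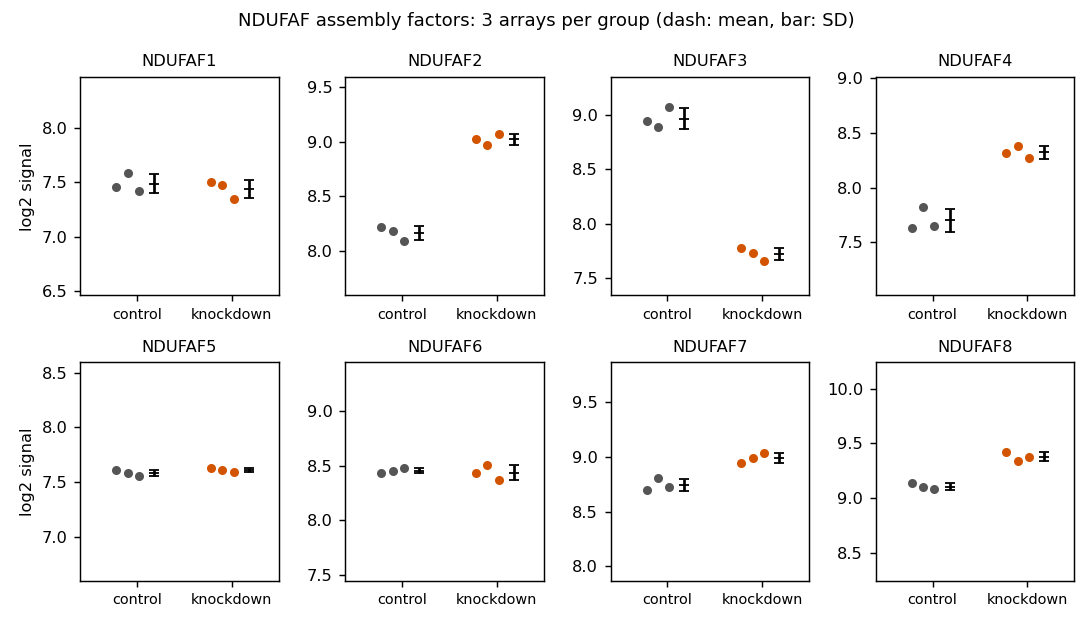
Log2 signal of the 8 NDUFAF assembly factors on each array, 3 control and 3 knockdown, with mean and SD beside the points; every panel spans the same range of log2 units. NDUFAF3 drops from 8.96 to 7.72, NDUFAF2 climbs from 8.16 to 9.02 and NDUFAF4 from 7.70 to 8.32, while NDUFAF1, NDUFAF5 and NDUFAF6 overlap between the groups.

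Several calls depended on the probe set read. Several probe sets were available for 17 called subunits, of which 11 were called the same way by at least 1 more of them (among them NDUFB4, with its identical pair), and 4 were called the opposite way by at least 1: NDUFA8, NDUFS7, NDUFS8 and NDUFV3. NDUFS7 counts in both. Of 4 such assembly factors, all 4 had another called the same way and NDUFAF7 also had one called the opposite way. Of the called subunits, 3 with several probe sets had no other that passed.

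**Figure D3:**
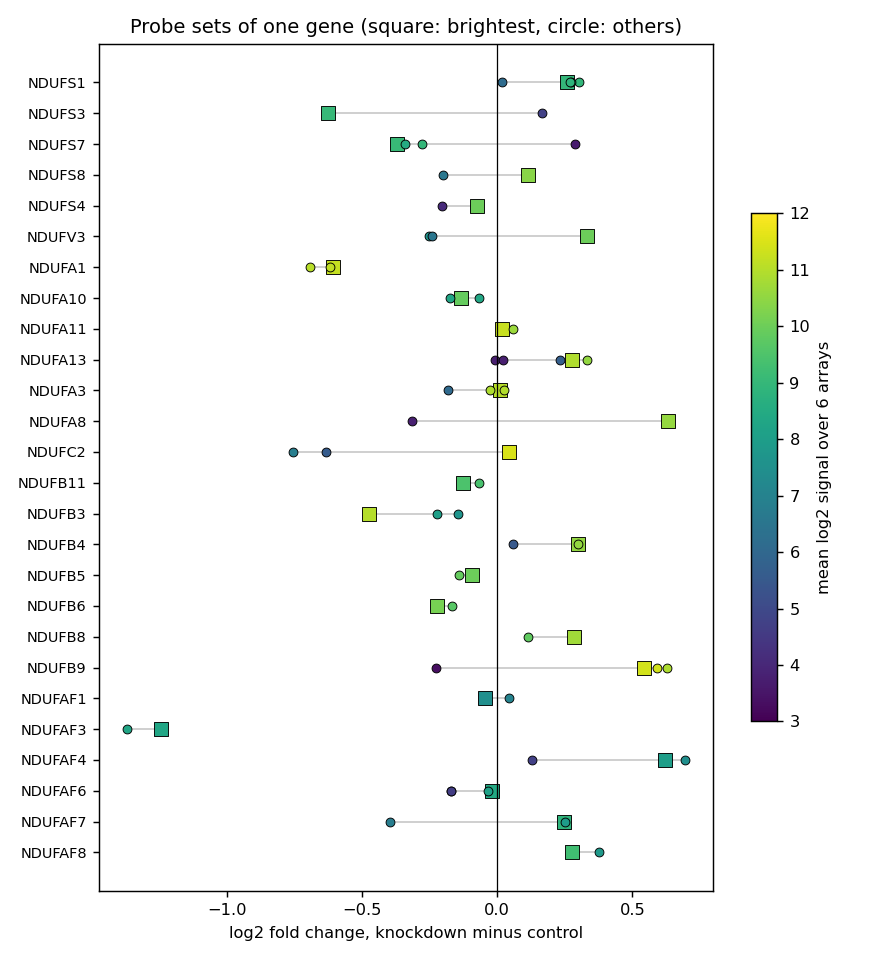
Log2 fold change of every 1-symbol probe set of the members that have more than 1, coloured by mean log2 signal over 6 arrays; squares are the brightest probe set of a gene and circles the others. Probe sets of NDUFA1, NDUFAF3 and NDUFAF8 lie close together, while those of NDUFA8, NDUFC2 and NDUFV3 spread across 0, with the dim ones to the left.

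Of 11 assembly factors without an NDUFAF name, 5 rose and 2 fell, or 63.6% called, close to the 66.5% of all genes tested, with a median of 0.04 (-0.03 over all genes). NUBPL, which delivers iron-sulfur clusters to complex I, read 7.46, 7.31 and 7.30 in control and 8.54, 8.59 and 8.46 in knockdown, a 2.25-fold rise (log2 fold change 1.17, SE 0.05, adjusted p = 4.39e-12). TMEM126B, a membrane partner of NDUFAF1, read 9.87, 9.89 and 9.85 against 10.82, 10.80 and 10.79, a 1.91-fold rise (0.94, SE 0.03, adjusted p = 1.25e-14). The falls were DMAC1 (-0.39, adjusted p = 3.4e-07) and ECSIT (-0.35, adjusted p = 1.45e-05), the latter another partner of NDUFAF1. Of 12 genes that build iron-sulfur clusters, 6 rose and 4 fell, or 83.3% called beside the same 66.5%, with a median of 0.09. The cysteine desulfurase NFS1, which supplies the sulfur, fell to 44.9% of control (log2 fold change -1.16, SE 0.04, adjusted p = 3.77e-14), and ISCA1 fell by 0.77. The chaperone HSPA9 rose by 0.53 and the ferredoxin FDX2 by 0.47.

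Regulators of mitochondrial gene expression rose in 6 cases of 12 and fell in 3, or 75.0% called beside 66.5% of all genes tested, with medians of 0.15 and -0.03. TFAM, which packages and transcribes mitochondrial DNA, rose by 0.51 (adjusted p = 1.01e-09) and the coactivator PPRC1 by 0.47 (adjusted p = 6.18e-08). GABPA, an ETS factor known to act on respiratory genes, fell by 0.58 (adjusted p = 4.54e-08) and the mitochondrial RNA polymerase POLRMT by 0.24. NRF1 itself did not pass (0.02, adjusted p = 0.781), and YY1 rose by 0.24 (adjusted p = 3.28e-07). NRF1 and YY1 are given because their motifs were counted and not by the rule of size. From mitochondrial DNA, single probe sets for ND1 and ND4 were seen on the array after the lists were made. They read 13.13, 13.21 and 13.25 (ND1) and 14.05, 14.05 and 14.07 (ND4) in control. In knockdown they fell by 0.13 (adjusted p = 0.000428) and 0.09 (adjusted p = 0.000116) in the fit over every probe set, less than the largest control probe set difference, and the ND4 level was close to the highest signal on the arrays, 14.14.

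Beside other genes of the same organelle, genes of complexes II to V rose in 9 cases of 39 and fell in 22, with a median log2 fold change of -0.10. All are subunits except ATP5IF1, an inhibitor of the ATP synthase, which is counted among them. Mitochondrial ribosomal protein symbols (MRPL or MRPS) rose in 47 cases of 75 and fell in 15, with a median of 0.18. These 75 were taken by symbol and include the antisense transcript MRPL20-AS1, called lower at -0.41, which is no ribosomal protein. Over all genes tested 32.4% rose and 34.1% fell, with a median of -0.03. In complex II all 3 measured subunits fell, with SDHD at -0.57 and SDHA at -0.19. In complex III 5 of 8 fell, led by UQCRQ (-0.80) and UQCRC1 (-0.66), and only CYC1 rose, by 0.10. In complex IV 6 of 10 fell, led by COX8A (-0.53) and COX5B (-0.51), and only COX6A1 rose, by 0.05. In complex V, the ATP synthase, 7 of 18 genes rose, led by the inhibitor ATP5IF1 (0.33) and the subunit ATP5PB (0.30). The 8 that fell were led by ATP5MC2 (-0.55) and ATP5MJ (-0.43). The differences between these lists and complex I were not tested.

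**Figure D4:**
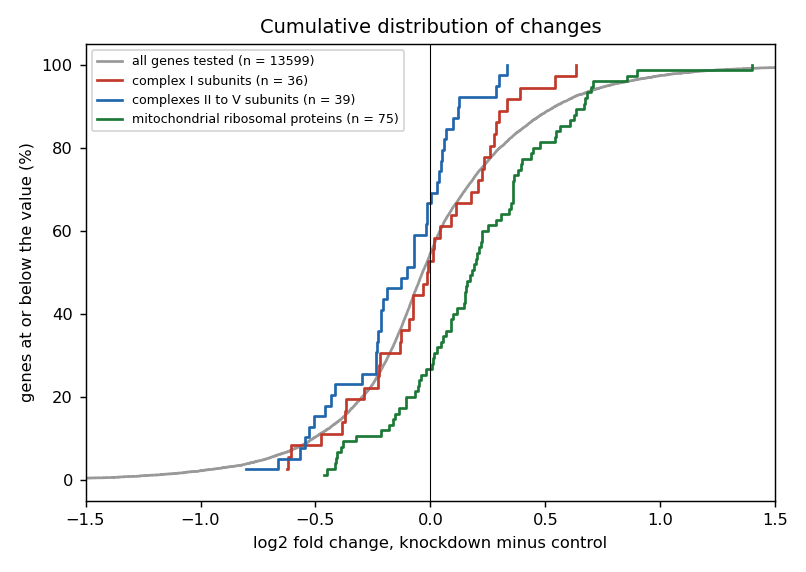
Share of genes (%) at or below each log2 fold change (knockdown minus control). Lines are 36 complex I subunits, 39 genes of complexes II to V (with ATP5IF1), 75 mitochondrial ribosomal protein symbols (with MRPL20-AS1) and all 13599 genes tested. The axis leaves out the most extreme genes. The complex I line runs near that of all genes, with medians of -0.01 and -0.03; the medians of the other lines are -0.10 and 0.18.

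Neighbours across the shared stretches moved with the complex I gene in some pairs and against it in others. This look at neighbours was chosen after the values were seen. Of 20 pairs, 14 had both genes tested and 10 had both called, 7 in the same direction and 3 in opposite directions. Over all genes tested 32.4% rose and 34.1% fell, and the share of agreeing pairs among other neighbours was not measured. DALRD3, across the stretch from NDUFAF3, read 7.62, 7.59 and 7.62 in control and 6.65, 6.71 and 6.74 in knockdown (-0.91, SE 0.05, adjusted p = 1.47e-10). The DNA repair gene ERCC8, across from NDUFAF2, read 7.15, 7.08 and 7.17 against 7.44, 7.37 and 7.45 (0.29, SE 0.05, adjusted p = 0.000137). KBTBD4, across from NDUFS3, read 7.04, 7.03 and 7.11 against 6.69, 6.67 and 6.64 (-0.40, SE 0.06, adjusted p = 9.57e-06). In these 3 pairs neighbour and member fell or rose together.

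The other pairs called the same way were NDUFA7 with the ribosomal protein gene RPS28 (-0.29 and -0.82), NDUFA2 with IK (0.21 and 0.24), NDUFS1 with EEF1B2 (0.26 and 0.17) and NDUFAF7 with CEBPZ (0.25 and 0.17). Of these genes, NDUFA2, EEF1B2 and CEBPZ changed by less than the largest control probe set difference, and NDUFAF7 did not pass with the mean of its probe sets. In the pairs called in opposite directions, both genes changed by more than that difference. The polyadenylation factor gene CPSF2 went against NDUFB1: it read 7.87, 7.87 and 7.85 in control and 9.02, 9.01 and 8.99 in knockdown, a rise of 1.14 (SE 0.04, adjusted p = 1.08e-13) beside the fall of NDUFB1 by 0.62. NAA15, a subunit of an N-terminal acetyltransferase, rose by 1.53 beside the fall of NDUFC1 by 0.23, and TEPSIN fell by 0.48 beside the rise of NDUFAF8 by 0.27. In 4 pairs only 1 gene was called. NDUFA1 fell by 0.61 while RNF113A, starting 99 bases away, stood at 0.03 (adjusted p = 0.633), and ESF1 rose by 0.74 while NDUFAF5 did not pass.

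**Figure D5:**
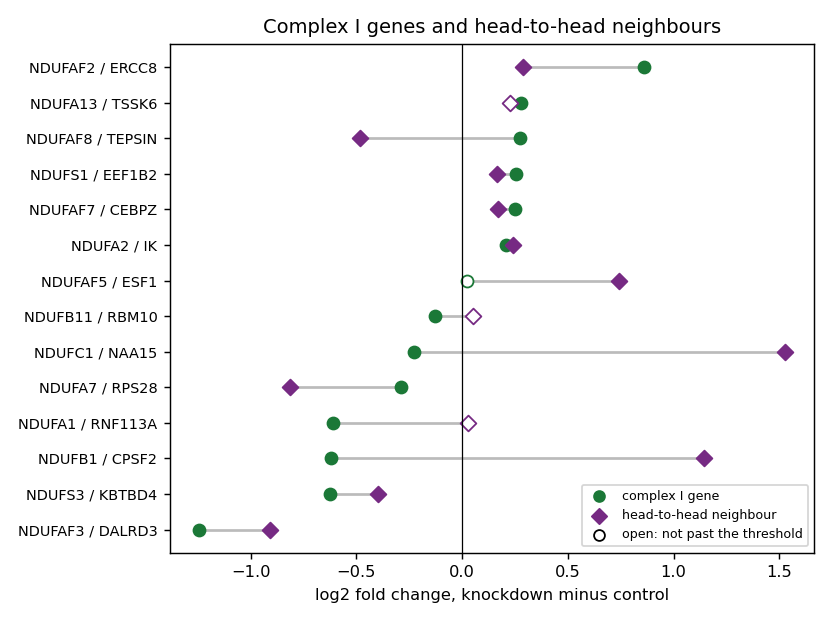
Log2 fold change (knockdown minus control) of 14 complex I genes (circles) and their head-to-head neighbours (diamonds), joined by a line; open symbols did not pass the threshold. NDUFAF3 and DALRD3 both lie far to the left at -1.24 and -0.91, while NDUFB1 with CPSF2 and NDUFC1 with NAA15 lie on opposite sides of 0.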

How the data were processed

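Total RNA of 3 control and 3 EIF3C knockdown samples was hybridised to Affymetrix arrays, per the labels. The values used were the log2 signals deposited by the authors, 49395 probe sets by 6 arrays. MAS5 was named, per the submitters' processing notes. Its version, background correction and scaling were not given in the sources used here. That values are log2 was read from their range, and they were not normalized again. If the arrays were scaled to each other, a shift common to every transcript cannot be seen.

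Probe sets with 1 gene symbol in the platform annotation were kept (44988), and the brightest probe set stood for a gene (18132 genes). Genes in the lowest 25% of mean signal were dropped, and the 13599 others, with all 44 members, were tested. The 2 groups were fitted in R 4.3.3 with limma 3.58.1 (intensity trend, Benjamini-Hochberg over all genes tested, threshold 0.05). The method was tested on simulated data with independent noise and changes in few genes. That setting differs from these data, where 66.5% of genes tested were called, so it does not give the share of false calls here. Probe sets on their own come from a fit over all 49293 human probe sets. Values per array are given for up to 3 rises and 3 falls in each subunit position and for every NDUFAF gene, and the 2 largest rises and falls were named in related lists (in each of complexes II to V), except mitochondrial ribosomal proteins, given as counts. Members and lists were chosen with earlier results of these data known. The number of arrays limits the precision.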

Additional observations from a re-analysis of the deposited data

How the results depend on the processing

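Under no filter or a stricter one, median centring, quantile normalization, averaged probe sets, a fit lacking the intensity trend and single arrays left out, the counts of called subunits stayed within 1.5 times the main counts of 14 higher and 16 lower. With single arrays left out they ran from 13 to 15 and from 14 to 16, and assembly factors stayed at 4 higher and 1 lower. Counting a gene when any of its probe sets passed gave 15 subunits higher and 19 lower, and 2 assembly factors lower, since NDUFAF7 then counted in both directions. Reversed signs were seen for NDUFC2 (-0.449), NDUFS8 (-0.0430), NDUFV3 (-0.0545) and NDUFA3 (-0.0439) with the mean of probe sets, and for NDUFA3 (-0.0104) and NDUFAF5 (-0.0049) with quantile normalization. That mean gives dim probe sets equal weight. With single arrays left out, values crossed 0 for uncalled genes: NDUFA11 (-0.0256 to 0.0420), NDUFA3 (-0.0162 to 0.0322), NDUFAB1 (-0.0287 to 0.00052), NDUFS5 (-0.0269 to 0.00897), NDUFAF1 (-0.0815 to 0.0037) and NDUFAF6 (-0.0532 to 0.0133). The weak calls were lost most often: NDUFS4 without the filter (adjusted p = 0.0607), NDUFA5 with quantile normalization (0.304) and NDUFA12 without the intensity trend (0.0799), while NDUFA9 was called lower with quantile normalization (limma, 0.00441). Over all single genes and settings, 582 values kept their sign and call, 18 kept the sign and lost the call, 2 kept the sign and gained it, and 14 changed sign, among which NDUFS8 and NDUFV3 lost their calls and NDUFC2 gained one. The filters, the intensity trend, a replicate block and the fit over every probe set, read at the brightest one, leave the fold change itself unaltered. In those settings only the call could change, so their kept signs carry no information. Replicate numbers were not taken as pairs, since the correlation of deviations between same-numbered arrays was 0.08, 0.13 and 0.23, although 5 of 6 arrays correlated best with their own number. With the replicate block, 9307 genes were called, against 9037 without it, of which 14 subunits were higher and 16 lower, and 4 assembly factors higher and 1 lower. The cause of the other shifts was not tested. Dim probe sets have no detection call here, so their small changes are uncertain.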
